A study of Homo sapiens with 12 samples.

Results

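Clustered protocadherins are cadherin-family adhesion molecules whose genes lie side by side in the alpha, beta and gamma clusters on the long arm of chromosome 5. The members described here are all rows of the deposited expression tables with a PCDHA, PCDHB, PCDHGA, PCDHGB, PCDHGC or PCDHAC symbol that ends in a number, which gave 45 of 16633 listed genes: 8 alpha, 15 beta and 22 gamma genes. The family was selected on the measured levels of PCDHGC5, the last gene of the gamma cluster, which was higher with 1 treatment and lower with the other. The values of PCDHGC5 are therefore given without a test, and counts over the other members are set beside the counts over all genes as a description.

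The data are 12 RNA-seq libraries (4 groups of 3) made from the polyadenylated RNA of HT1080, a human fibrosarcoma cell line. PMA libraries came from cells given 40 nM phorbol 12-myristate 13-acetate, a phorbol ester that activates protein kinase C, for 24 h, and ConA libraries from cells given 40 µg/mL concanavalin A, a lectin that binds cell-surface sugars, for 24 h. PMA control and ConA control libraries came from untreated cells of each experiment, and all 4 groups were labelled wild type and were kept in low serum after culture in biotin-depleted medium. The labels do not say that replicates were separate cultures, so the p-values measure the spread between these libraries, which may be technical.

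In vertebrate nervous systems each neuron switches on a small set of these genes by choice of promoter, and the proteins pair with like proteins on neighbouring cells, which lets neurites of 1 cell recognise each other. Each alpha and gamma gene has its own first exon, which encodes the extracellular cadherin repeats, and splices it to constant exons shared by the whole cluster that encode the end of the cytoplasmic tail. Beta genes are single exons with no shared end. The C-type genes, among them PCDHGC3, PCDHGC4 and PCDHGC5, sit at the ends of the alpha and gamma clusters and are used by a rule of their own.

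Many promoters of these genes, but not all, are known to hold a conserved sequence element with the letters CGCT at its core. The insulator protein CTCF binds it. RefSeq promoters, from 250 bases before to 50 after the start of a gene, were matched for 40 of the 45 members. CGCT was found on the gene strand in 46 of 47 annotated member genes with a promoter and in 54.3% of all 35116 promoters. Across the whole family no 8-letter word was held by more than 13 of the 47 genes on either strand: GTGGCGCT, TGGCGCTG and GGTGGCGC overlap each other and were found in 1.15%, 1.91% and 2.23% of all promoters. The clusters were then searched one by one on the gene strand, a step added after the first result was seen. In each cluster the word held by most of its genes was taken, and a tie went to the word in the fewest promoters. A high count in the cluster, and in ties a low share of all promoters, thus came from the choice of the word and test nothing. ATGTCGCT was held by 9 of 13 alpha genes and 0.154% of all promoters, GTGGCGCT by 13 of 14 beta genes and 0.638%, and GCCGCTGT by 11 of 20 gamma genes and 0.897%. None of these words was held by a gene of another cluster in these windows. They began at a median of 52 bases before the gene start in alpha, 65 in beta and 70 in gamma promoters. The stretches around the word are printed for some of the members named below that hold the word of their cluster, called or not. They come from RefSeq on GRCh38.p14, plus strand, with the word in capitals. PCDHGA2 and PCDHGA5, called below, did not hold the gamma word in their windows. PCDHB14 and PCDHGA7, also called below, held the word of their cluster and are not printed.
PCDHA1, chr5:140786073-140786125: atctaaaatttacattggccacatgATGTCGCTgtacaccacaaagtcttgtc
PCDHA4, chr5:140806966-140807018: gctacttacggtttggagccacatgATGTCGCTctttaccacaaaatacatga
PCDHB5, chr5:141135166-141135205: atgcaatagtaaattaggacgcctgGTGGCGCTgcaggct
PCDHB7, chr5:141172553-141172605: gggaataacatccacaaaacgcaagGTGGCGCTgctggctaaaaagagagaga
PCDHB15, chr5:141245301-141245353: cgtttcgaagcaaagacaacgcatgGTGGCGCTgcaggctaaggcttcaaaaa
PCDHGA1, chr5:141330392-141330444: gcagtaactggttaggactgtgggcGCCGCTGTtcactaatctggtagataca
PCDHGB4, chr5:141387606-141387658: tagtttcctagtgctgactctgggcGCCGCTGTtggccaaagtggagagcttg
PCDHGA10, chr5:141412920-141412972: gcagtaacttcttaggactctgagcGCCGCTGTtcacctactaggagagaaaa
PCDHGC3, chr5:141475869-141475921: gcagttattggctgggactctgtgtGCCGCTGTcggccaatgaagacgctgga
A match describes these letters in this window and is not a measured binding site. PCDHA3, PCDHB6, PCDHB11, PCDHGA12 and PCDHGC5 had no entry, so their promoters were not searched and nothing is said of them here.

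The values are normalized counts, which are estimated reads per gene divided by 1 factor per library and not by gene length. About 33649636 to 45592979 estimated reads were counted per library. The PMA and ConA tables were normalized apart, so changes were computed within a table. Genes whose mean in a table reached 10 normalized counts were tested with limma on log2(value + 1). A gene was called where its log2 change was 1 or more in size and its adjusted p did not exceed 0.0001. Counts at an unadjusted limma p under 0.05 are given for some sets, without the share of all genes at that level, which was not counted. With PMA 63.3% of all genes had an adjusted p of at most 0.05, so such counts only describe the sets. Changes on this scale understate the change of low genes. An exact permutation test of 3 against 3 libraries cannot go below p = 0.1, so no single value was tested that way. Fewer cells with a transcript and less of it per cell cannot be told apart in these bulk samples.

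Member values were whole reads less often than those of all genes. In GENCODE 29 transcripts the run shared with other members at the 3′ end was 2866 bases in alpha genes and 2181 to 2184 bases in gamma genes, or 45.7 to 47.7% of a gamma transcript, while no such run was found between beta genes. A value times its library factor is a whole number where reads were counted whole and not divided between genes; how reads from shared exons were assigned is not given in the sources used here. Among values of 5 to 60 estimated reads, 82.9% were whole within 0.05 over all genes (29591 of 35698). The share was 54.8% for alpha values (23 of 42, exact Clopper-Pearson 95% interval 38.7 to 70.2%), 42.0% for beta values (50 of 119, 33.0 to 51.4%) and 10.4% for gamma values (8 of 77, 4.59 to 19.4%). Values of 1 gene in several libraries share a source, so these intervals cover counting error only. Beta values were whole less often than those of all genes too. The run was sought only from an identical stretch near the 3′ end, so sequence shared elsewhere in a gene was not measured. The part of shared sequence in these shares was not tested. Values of all 3 clusters may thus depend on how reads were divided, those of gamma genes most often. Each call of a member is uncertain to that extent. PCDHGA1, PCDHGA2, PCDHGA10, PCDHGC3 and PCDHGC5 had at least 70 estimated reads in each library, so they gave no value to the gamma share. How often their values are whole was not measured.

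**Figure D1:**
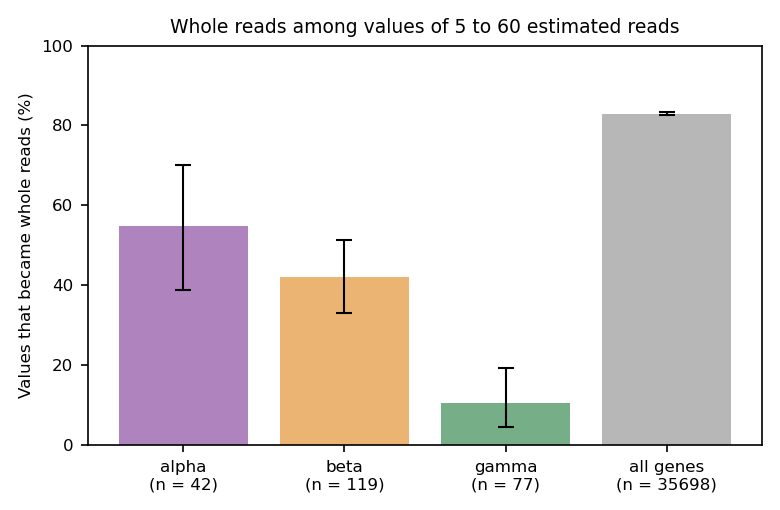
Percentage of values between 5 and 60 estimated reads that became whole under the library factor, for alpha, beta and gamma members and for all genes. Bars show 54.8, 42.0, 10.4 and 82.9%, and error bars are exact 95% intervals.

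PCDHGC5 was higher with PMA and lower with ConA. It had 196, 199.7 and 253 normalized counts in the PMA controls and 792, 635 and 733 with PMA. In the ConA experiment it had 404, 330 and 425 in the controls and 121, 84.3 and 124 with ConA. The groups did not overlap in either experiment, and the libraries of a group lay close to each other. The mean went from 216 ± 31.9 (SD, n = 3) to 720 ± 79.1 with PMA, a log2 change of 1.73 (SE 0.11), and went from 386 ± 50.1 to 110 ± 22.2 with ConA, a log2 change of -1.82 (SE 0.15). These values chose the family and are a description.

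PCDHGC3, the C-type gene that lies before PCDHGC4 and PCDHGC5, gave most gamma transcripts and did not share this pattern. It had 6759, 6152 and 6705 normalized counts in the PMA controls and 6173, 5576 and 6130 with PMA. It had 10023, 8784 and 10107 in its ConA controls and 6157, 5350 and 5914 after ConA. PMA libraries overlapped with their controls, whereas the ConA libraries all lay below theirs. The log2 change was -0.13 (SE 0.05, limma adjusted p = 0.0397) with PMA and -0.73 (SE 0.07, limma adjusted p = 3.53e-07) with ConA, both short of the fold needed for a call. For each 100 counts of PCDHGC3 there were 3.31 ± 0.44 counts of PCDHGC5 in PMA control libraries against 12.1 ± 0.72 in PMA libraries, and 4.00 ± 0.23 in ConA control libraries against 1.88 ± 0.27 in ConA libraries (SD, n = 3). PCDHGC4 was listed with ConA only, at 10.99 ± 1.95 in the controls and 5.69 ± 2.67 with ConA, and its mean was too low for the test.

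**Figure D2:**
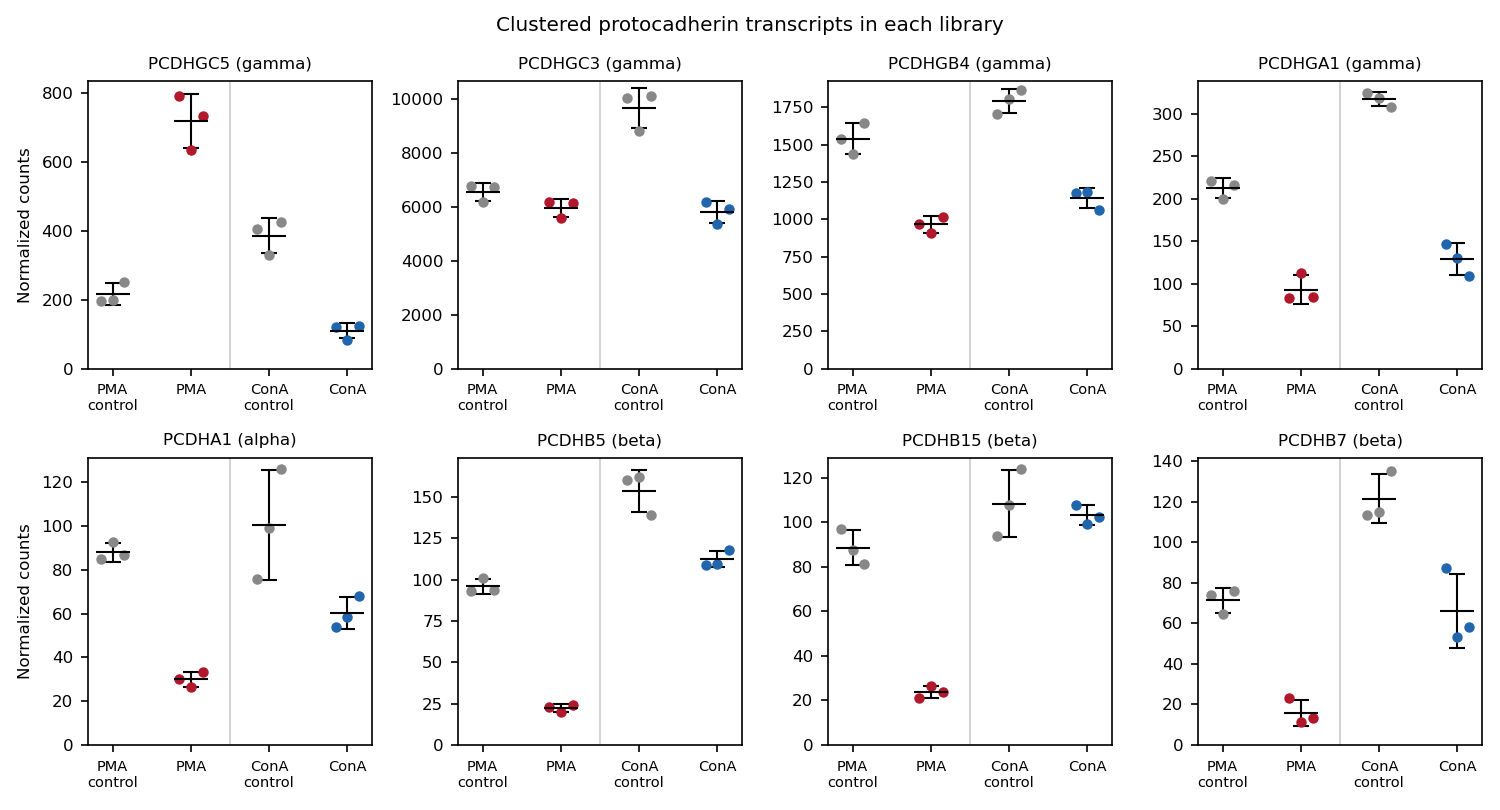
Normalized counts of 8 members in each of the 12 libraries (points), with the mean and SD of each group of 3 (bars). PCDHGC5 lies at 635 to 792 with PMA against 196 to 253 in the controls, and at 84.3 to 124 with ConA against 330 to 425, whereas the other 7 members had lower means with both treatments.

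Per kilobase of transcript, PCDHGC3 stood first in all 4 groups and PCDHGB4 second. PCDHGC3 reached 1384 ± 71.1 normalized counts per kilobase in PMA control, 1261 ± 70.5 in PMA, 2040 ± 157 in ConA control and 1229 ± 87.6 in ConA libraries. PCDHGB4 followed at 336 ± 22.8, 211 ± 11.9, 392 ± 17.8 and 249 ± 14.6, and their spreads did not meet. PCDHGC5 stood at rank 10 of 39 in the PMA controls with 45.4 ± 6.71 per kilobase and at rank 3 with PMA with 151 ± 16.6. It stood at rank 7 of 44 in the ConA controls with 81.2 ± 10.5 and at rank 12 with 23.1 ± 4.67 with ConA. In the ConA controls PCDHGC5 and its neighbour in the order, PCDHGB2 at 82.1 ± 6.69, did not differ beyond their spread.

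With PMA nearly all members were lower, and the log2 changes of alpha and beta members were mostly more negative than those of gamma members. Of the 33 tested members other than PCDHGC5, 32 had a negative log2 change beside 49.7% of all 15153 genes tested, and 7 were called lower beside 4.61% of all genes. None was called higher by limma beside 4.03% of all genes, and none had a positive change at an unadjusted p under 0.05. In 28 of the 33 members all PMA libraries lay below all controls, which held for 33.1% of all genes. The median log2 change was -1.71 over 11 beta members and -0.95 over 20 gamma members, beside 0.00 over all genes. The minimum mean was taken over both groups, for members and all genes alike. PCDHA4, PCDHB8, PCDHB9, PCDHB16 and PCDHGA9 had PMA means under 10 and passed it through their controls. The counts and medians here include them, and the beta median is the value of PCDHB16. The 7 calls were PCDHA1, PCDHB5, PCDHB7, PCDHB15, PCDHGA1, PCDHGA2 and PCDHGA10.

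PCDHA1, the first gene of the alpha cluster and its most abundant member, had 84.8, 93.0 and 86.7 normalized counts in the PMA controls and 30.2, 26.6 and 33.5 with PMA. All PMA libraries were far below the controls, with a log2 change of -1.52 (SE 0.17, limma adjusted p = 1.13e-05). Without PMA control 1 or PMA control 2 the adjusted p was 0.000143 or 0.000142, which misses the threshold. PCDHA4, the alpha member next in abundance, had 12.2, 35.1 and 22.5 in the controls and 10.5, 3.80 and 5.75 with PMA. Its controls were spread widely, and the log2 change of -1.64 (SE 0.46, adjusted p = 0.00921) was not called. PCDHA6 (8.07 against 3.80 in the means) and PCDHA10 (14.4 against 4.24) were too low for the test.

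PCDHB5, the most abundant beta member, had 92.8, 101 and 93.9 normalized counts in the PMA controls and 23.2, 19.96 and 23.9 with PMA, a log2 change of -2.05 (SE 0.17, limma adjusted p = 1.12e-06). PCDHB15, the last gene of the cluster, had 96.8, 87.6 and 81.4 in the controls and 20.9, 26.6 and 24.0 with PMA, a log2 change of -1.86 (SE 0.18, adjusted p = 3.97e-06). In both, each PMA library stood far below each control, and both calls held without any single library. PCDHB7 had 73.8, 64.4 and 75.8 in the controls and 23.2, 11.4 and 13.2 with PMA, a log2 change of -2.15 (SE 0.27, adjusted p = 2.88e-05). Its adjusted p ran from 0.000162 to 0.000398 without PMA control 1, PMA control 2, PMA 2 or PMA 3. The other 8 tested beta members had log2 changes between -2.07 for PCDHB14 and -0.40 for PCDHB2, of which all but that of PCDHB2 had an adjusted p of at most 0.05, beside 63.3% of all genes. Of the 3 beta members below the test's minimum, PCDHB12 had 8.91, 18.8 and 16.3 in the controls and 2.32, 1.90 and 0 with PMA, or at least 4.43-fold lower against a floor of 3 estimated reads per library. PCDHB11 (12.6 against 3.63) did not overlap between groups and PCDHB3 (9.48 against 4.24) did.

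Among gamma members, PCDHGA1, the first gene of the cluster, had 221, 199.4 and 216 normalized counts in the PMA controls and 82.4, 112 and 83.9 with PMA. The log2 change was -1.20 (SE 0.13, limma adjusted p = 1.3e-05), and the adjusted p was 0.000193 without PMA control 1. PCDHGA2 had 437, 431 and 459 in the controls and 219.7, 193 and 184 with PMA, a log2 change of -1.15 (SE 0.09, adjusted p = 4.73e-07) that was called without any single library too. PCDHGA10 had 291, 277 and 270.3 in the controls and 108, 93.1 and 150.4 with PMA, a log2 change of -1.28 (SE 0.15, adjusted p = 2.23e-05). Its adjusted p ran from 0.000105 to 0.000289 without PMA control 1, PMA control 2, PMA 1 or PMA 2. In all 3 genes the groups stood apart. PCDHGB4, the gamma member next to PCDHGC3 in abundance, had 1535, 1437 and 1646 in the controls and 968, 909 and 1018 with PMA, and its log2 change of -0.67 (SE 0.06, adjusted p = 2.71e-06) was short of the fold for a call. PCDHGB5 alone among the tested members other than PCDHGC5 had a positive log2 change, at 0.26 (SE 0.18, adjusted p = 0.233), although its PMA libraries (42.5, 51.8 and 44.7) all lay above the controls (37.6, 38.5 and 39.4). The number of members called lower was 3 without PMA control 1.

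With ConA most members were lower too, with median changes nearer to 0, above all in the beta cluster. Of the 36 tested members other than PCDHGC5, 31 had a negative log2 change beside 50.3% of all 15139 genes tested, and 3 gamma genes were called lower beside 2.88% of all genes. None was called higher by limma beside 5.83% of all genes, and 1 had a positive change at an unadjusted p under 0.05. In 20 members all ConA libraries lay below all controls, beside 34.4% of all genes. The median log2 change was -0.42 over 14 beta members and -0.67 over 20 gamma members, beside 0.00 over all genes. PCDHB3, PCDHB11 and PCDHGA11 had ConA means under 10 and passed the minimum through their controls. These counts and medians include them. No alpha or beta member was called, while 1 alpha and 5 beta members were lower at an unadjusted p under 0.05.

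The 3 members called lower with ConA were all of the A subtype of the gamma cluster. PCDHGA1 had 324, 319 and 308 normalized counts in the ConA controls and 146.5, 129.6 and 109 with ConA, a log2 change of -1.31 (SE 0.12, limma adjusted p = 3.3e-07). It was called with both treatments and without any single ConA or ConA control library. PCDHGA5 had 88.8, 101 and 77.6 in the controls and 38.4, 40.2 and 23.3 with ConA, a log2 change of -1.40 (SE 0.22, adjusted p = 7.06e-05), and PCDHGA7 had 77.6, 80.1 and 87.4 in the controls and 42.5, 36.9 and 33.9 with ConA, a log2 change of -1.10 (SE 0.18, adjusted p = 7.65e-05). Both sat close to the threshold. Without ConA control 4, 5 or 6 or ConA 3 the adjusted p of PCDHGA5 was 0.000232 to 0.000607, and without these or ConA 2 that of PCDHGA7 was 0.000244 to 0.000891. With 1 library left out, 1 member was called lower without ConA control 4 or ConA 3 and 8 were called without ConA 1.

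PCDHGB4 had 1706, 1806 and 1867 normalized counts in the ConA controls and 1175, 1182 and 1064 with ConA, and its log2 change of -0.65 (SE 0.07, limma adjusted p = 8.01e-07) was close to that with PMA. PCDHA1 had 76.1, 99.1 and 126 in the controls and 54.1, 58.5 and 68.3 with ConA, a log2 change of -0.70 (SE 0.19, adjusted p = 0.00488). PCDHA4 had 28.7, 24.6 and 22.8 in the controls and 27.9, 30.1 and 20.3 with ConA, with overlapping groups and a log2 change of 0.02 (SE 0.26, adjusted p = 0.941). Among beta members the ConA values spread in both directions. PCDHB3 had 15.6, 23.5 and 19.2 in the controls and 2.10, 5.76 and 5.50 with ConA, the lowest log2 change of the family with ConA at -1.97 (SE 0.43, adjusted p = 0.00108). PCDHB9 had 11.4, 7.39 and 14.2 in the controls and 22.8, 29.7 and 29.8 with ConA, the highest at 1.28 (SE 0.32, adjusted p = 0.00289). The groups of both genes stood apart, but neither passed the threshold on the adjusted p, and both were chosen for mention after their values were seen. PCDHA8 was under the test's minimum, with 21.4, 9.01 and 13.8 in the controls and 2.00, 1.05 and 2.20 with ConA, or at least 5.01-fold lower against the floor of 3 estimated reads. PCDHA6 was likewise at least 2.70-fold lower, and PCDHA2, PCDHA3 and PCDHA7, with means of 5.39 to 12.1, overlapped between groups. PCDHB4 was also too low for the test (12.0 against 6.22), as was PCDHGC4.

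**Figure D3:**
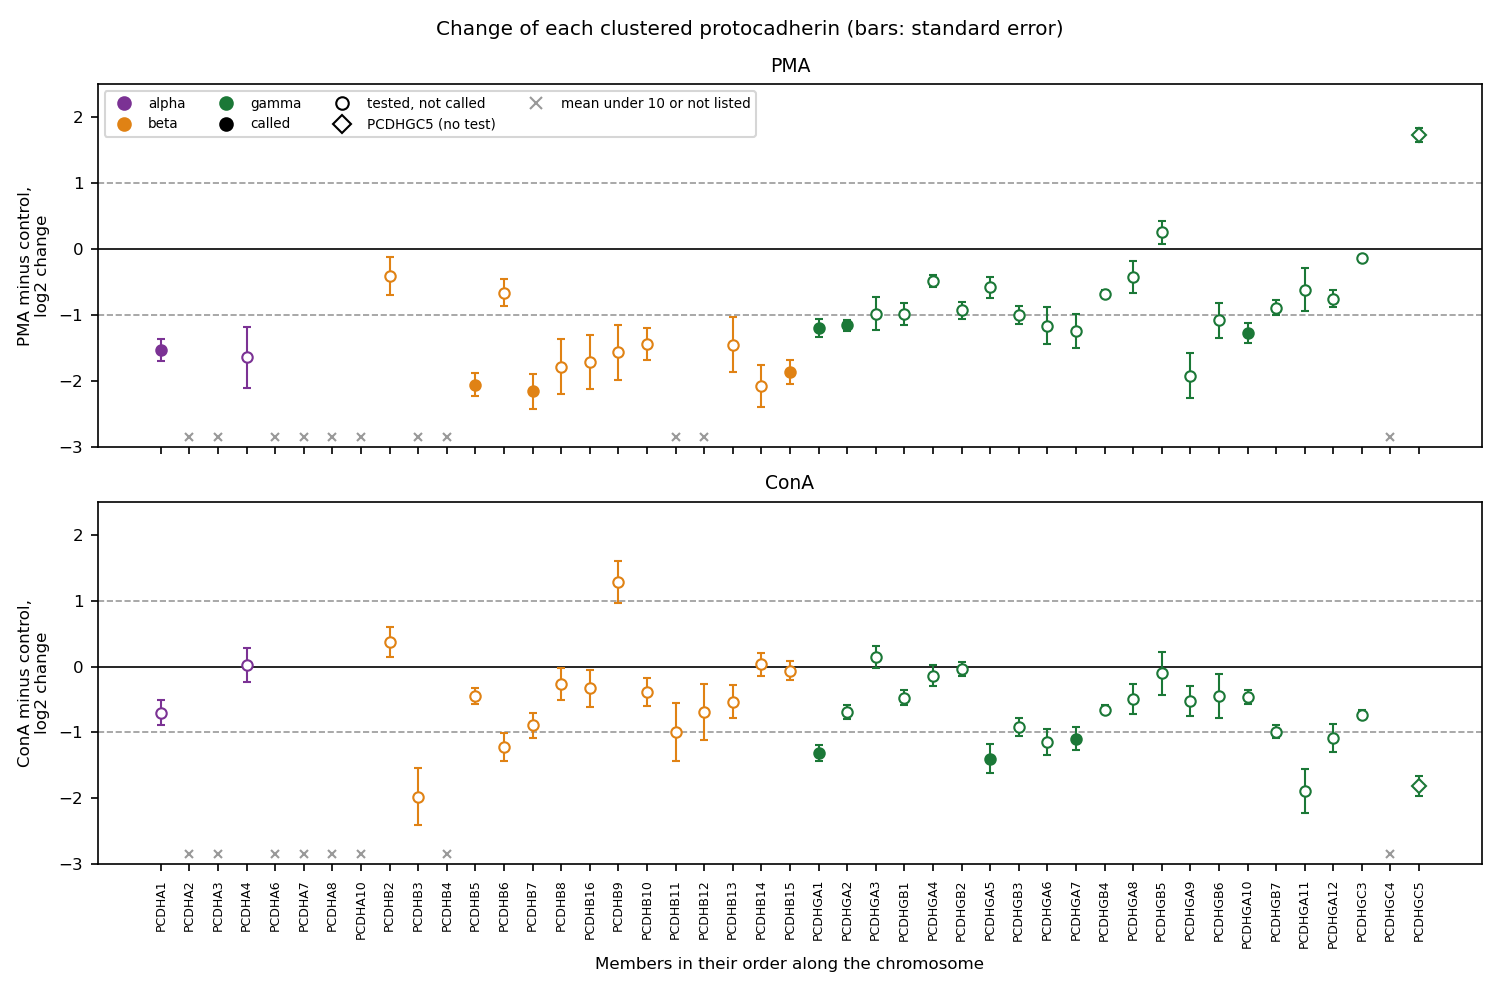
Log2 change of each tested member (y axis, treated minus control, with SE) in the order of the genes along the chromosome (x axis), for PMA (top) and ConA (bottom). Filled points are calls, dashed lines mark the fold needed for a call, and PCDHGC5 at the far right stands at 1.73 with PMA and -1.82 with ConA, while the tested beta members with PMA lie between -2.15 and -0.40.

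Summed over its listed members, each cluster was lower with both treatments, by different amounts. The alpha sum was 134 ± 14.8 normalized counts in the PMA controls and 44.8 ± 1.43 with PMA, 2.99-fold lower. The beta sum was 574 ± 31.2 and 190.0 ± 5.39, 3.02-fold lower, and the gamma sum 11358 ± 621 and 9261 ± 481, 1.23-fold lower (SD, n = 3). With ConA the alpha sum went from 170 ± 11.9 to 117 ± 0.21 (1.45-fold lower), the beta sum from 809 ± 16.6 to 624 ± 20.1 (1.30-fold) and the gamma sum from 15196 ± 845 to 9240 ± 567 (1.64-fold). In each of these 6 comparisons all treated libraries lay below all controls. The order of the clusters therefore differed between the treatments, with gamma the least lowered by PMA and the most lowered by ConA; that order was not tested. PCDHGC3 made up much of the gamma sum with PMA. Without it the sum was 1.46-fold lower (4819 ± 300 against 3302 ± 147), and without both PCDHGC3 and PCDHGC5 it was 1.78-fold lower. With ConA the corresponding values were 1.62-fold and 1.56-fold.

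**Figure D4:**
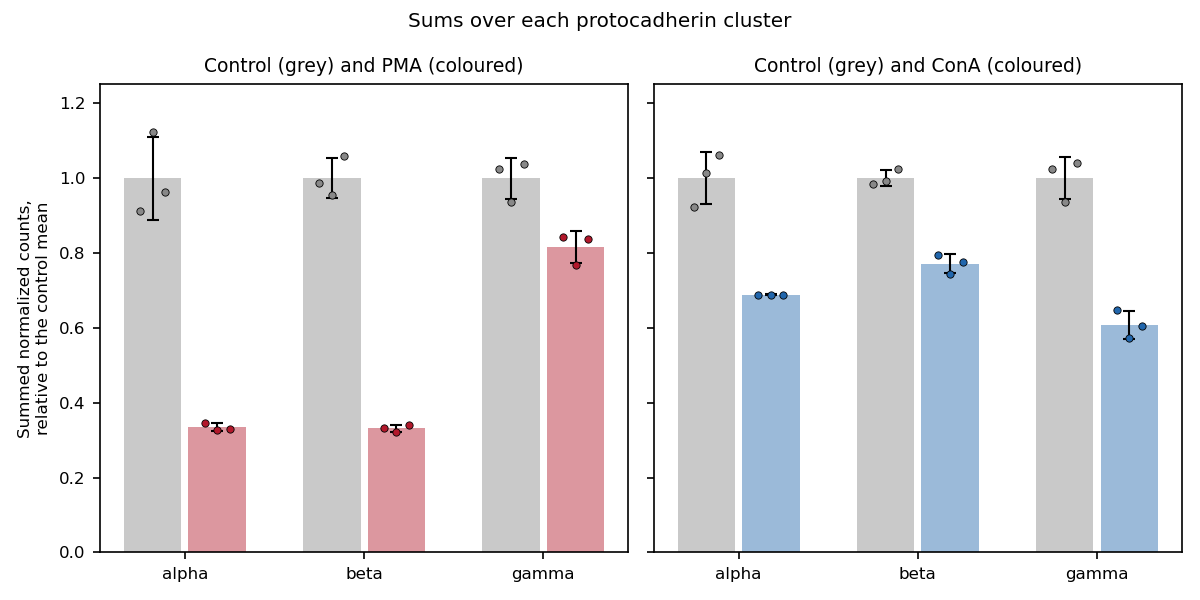
Summed normalized counts of the alpha, beta and gamma members in each library (points), divided by the control mean of the table, with group means (bars from 0) and SD (error bars), for PMA (left) and ConA (right). With PMA the alpha and beta sums stand at 0.335 and 0.331 of the controls and the gamma sum at 0.815, while with ConA they stand at 0.688, 0.771 and 0.608.

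Gamma members held 94.1 ± 0.28% of all counts of the family in PMA control and 97.5 ± 0.07% in PMA libraries, and the beta share went from 4.76 ± 0.14% to 2.00 ± 0.06%. With ConA the gamma share went from 93.9 ± 0.32% to 92.6 ± 0.24% and the beta share from 5.01 ± 0.24% to 6.26 ± 0.17%. All 4 of these shifts were larger than the spread between replicates. Within the gamma cluster PCDHGC3 held 57.6 ± 0.63% in the PMA controls and 64.3 ± 0.27% with PMA, but 63.4 ± 1.46% and 62.8 ± 1.51% in the ConA controls and ConA, where the groups overlapped. PCDHGC5 held 1.90 ± 0.23% and 7.76 ± 0.50% in the PMA experiment and 2.54 ± 0.19% and 1.18 ± 0.20% in the ConA experiment. The PCDHGA genes as a group were 1.93-fold lower with PMA and 1.62-fold lower with ConA, and the PCDHGB genes 1.69-fold and 1.51-fold lower.

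The PMA change less the ConA change was tested by limma over all 12 libraries. Of 34 members tested other than PCDHGC5, 3 passed with a negative difference, that is, lower with PMA relative to ConA, beside 6.89% of 15030 genes. All 3 were beta genes: PCDHB5 (difference -1.61 on the log2 scale, SE 0.19, adjusted p = 1.37e-06), PCDHB15 (-1.79, SE 0.22, adjusted p = 1.66e-06) and PCDHB14 (-2.10, SE 0.37, adjusted p = 8.67e-05). None passed with a positive difference beside 3.67% of all genes, and 3 gamma genes had one at an unadjusted p under 0.05. PCDHB9 had the most negative difference of the 34, at -2.84 (SE 0.50, adjusted p = 0.000106), which missed the threshold. It had 14.7, 21.1 and 11.9 normalized counts in the PMA controls and 4.64, 3.28 and 6.22 with PMA (log2 change -1.56). Its groups stood apart in both experiments, lower with PMA and higher with ConA. Its mean in the PMA experiment, 10.3, was close to the test's minimum. It was chosen for mention after its values were seen. The count of calls was 5 without PMA 3.

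The values of the 3 called beta genes in the libraries show where the difference lies. PCDHB14 had 47.9, 47.9 and 67.4 normalized counts in the PMA controls and 10.5, 19.7 and 8.38 with PMA, while the ConA controls had 83.4, 66.1 and 96.6 and the ConA libraries 81.7, 94.8 and 73.7. PCDHB15 had 93.8, 108 and 124 in the controls of ConA and 108, 99.1 and 102 after it, and PCDHB5 had 160, 162 and 139 and then 109, 109.7 and 118. PMA libraries of all 3 genes lay apart from their controls, whereas with ConA those of PCDHB14 and PCDHB15 overlapped with theirs. The call for PCDHB14 was lost on leaving out any library other than PMA 2 (adjusted p 0.000166 to 0.000436), and with a pseudocount of 0.1, a minimum mean of 50, quantile normalization or no variance trend (0.000107 to 0.000961), and the other 2 calls held without any single library. Over 12 beta members the median difference was -1.45, and over 20 gamma members other than PCDHGC5 it was -0.05, beside -0.01 over all genes. The minimum mean of this test was taken over all 12 libraries, so members low with PMA, such as PCDHB12 (mean 1.41), are included. PCDHGC3 had a difference of 0.60 (SE 0.09, adjusted p = 2.29e-05), below the fold for a call, and PCDHGC5, not tested, had 3.55 (SE 0.21).

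**Figure D5:**
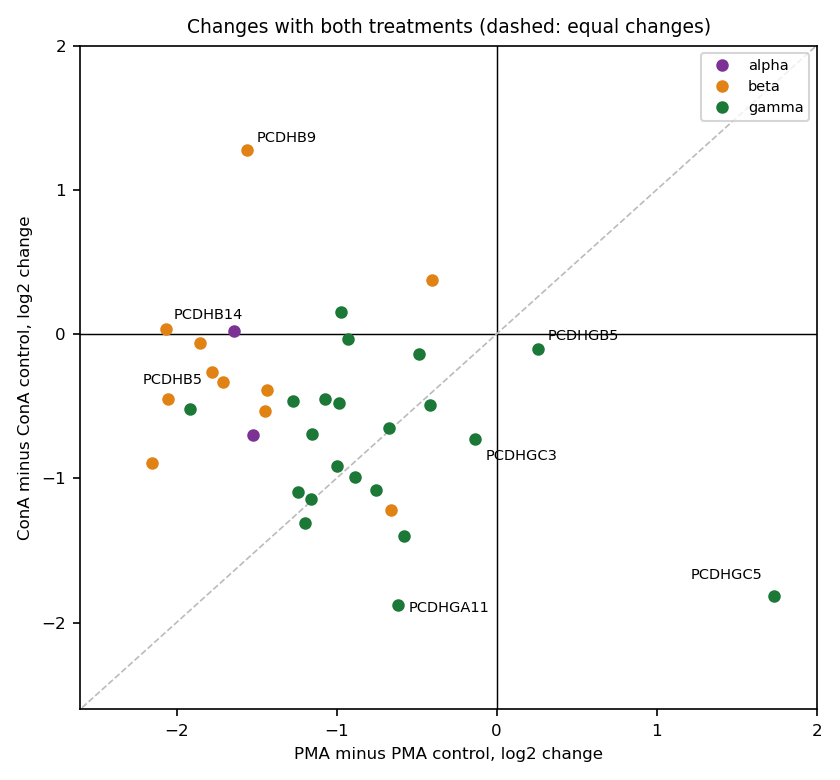
Log2 change with PMA (x axis) against log2 change with ConA (y axis) for the members tested in both tables, coloured by cluster, with equal changes on the dashed line. PCDHGC5 lies alone at the lower right (1.73 and -1.82), PCDHB9 at the upper left (-1.56 and 1.28), and 27 of the 33 other members are negative with both treatments.

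Other adhesion genes were read from fixed lists. Of 13 tested nonclustered protocadherins and FAT or Dachsous cadherins, 2 were called higher and 3 lower with PMA, and of 12 with ConA 3 and 2. Over all genes 4.03% were called higher and 4.61% lower with PMA, and 5.83% and 2.88% with ConA. With PMA the giant cadherin FAT4 fell (370 ± 46.5 to 66.4 ± 11, log2 change -2.46, limma adjusted p = 4.1e-08), PCDH18 fell (61.0 ± 7.16 to 11.5 ± 1.87, -2.31, adjusted p = 5.7e-06) and PCDH9 rose (47.0 ± 7.94 to 245 ± 4.84, 2.37, adjusted p = 5.94e-08). With ConA PCDH17 rose (33.8 ± 4.43 to 263 ± 19.1, 2.93, adjusted p = 6.69e-10), PCDH20 rose (22.3 ± 2.54 to 148 ± 22.2, 2.67, adjusted p = 1.72e-08) and FAT3 fell (83.5 ± 13.1 to 23.5 ± 6.41, -1.81, adjusted p = 8.09e-06).

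Of 16 classical cadherins and catenins, 15 had a negative log2 change with PMA, with a median of -0.92 (clustered protocadherins other than PCDHGC5: 32 of 33, median -1.15). With PMA 3 were called lower (beside 4.61% of all genes) and 0 higher (beside 4.03%). At an unadjusted p under 0.05, 14 were lower and 1 higher. With ConA 2 were called each way, beside 2.88% of all genes lower and 5.83% higher. At an unadjusted p under 0.05, 6 were lower and 5 higher with ConA. JUP, which encodes the junctional catenin plakoglobin, fell with PMA (4109 ± 520 to 335 ± 32.8, log2 change -3.61, limma adjusted p = 5.53e-11) and with ConA (6075 ± 184 to 1855 ± 202, -1.72, adjusted p = 8.21e-11). The neural cadherins CDH7 (-4.80) and CDH10 (-2.52) were the other calls with PMA, and CDH8 (2.81), CDH12 (1.33) and CDH7 (-1.32) the other calls with ConA. The PMA libraries held 3.48, 4.75 and 0 normalized counts of CDH7, near the floor, so the size of its PMA change is uncertain.

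Genes that act on the choice or silencing of protocadherin promoters formed a further list. Of 32 tested, 1 was called lower (beside 4.61% of all genes) and 0 higher (beside 4.03%) with PMA. With ConA 2 were called higher (beside 5.83%) and 0 lower (beside 2.88%). At an unadjusted p under 0.05, 14 were higher and 5 lower with PMA, and 17 were higher and 0 lower with ConA. The share of all genes at that level was not counted, so these numbers are not read as a response of the list. With PMA 63.3% of all genes had an adjusted p of at most 0.05. CTCF joins many of these promoters to their enhancers. The log2 change of CTCF was -0.24 (limma adjusted p = 0.00178) with PMA and 0.26 (adjusted p = 0.00102) with ConA. TET1, an enzyme that oxidises methylated cytosine, fell with PMA (97.9 ± 2.03 to 22.7 ± 4.13, -2.08, adjusted p = 2.15e-06). SMCHD1, a chromatin protein known to silence the clusters, rose with ConA (1359 ± 140 to 3289 ± 335, 1.27, adjusted p = 1.13e-08), as did the cohesin acetyltransferase ESCO2 (252 ± 38.3 to 881 ± 93.2, 1.81, adjusted p = 6.06e-09). With PMA ESCO2 (0.77, limma adjusted p = 8.49e-06) and SMCHD1 (0.29, adjusted p = 0.000733) were higher too, short of the fold for a call. TET1 had a log2 change of 0.04 with ConA (limma adjusted p = 0.819).

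Among 26 tested partners and proteases of protocadherins 0 were called with PMA, beside 4.61% of all genes lower and 4.03% higher. At an unadjusted p under 0.05, 13 were higher and 10 lower. With ConA 1 of 27 tested was called higher and 1 lower, beside 5.83% and 2.88% of all genes. The receptor tyrosine kinase RET rose (5.77 ± 2.40 to 127 ± 18.8, log2 change 4.30, limma adjusted p = 2.15e-08). The kinase PRKCA fell (6189 ± 444 to 1640 ± 61.3, -1.91, adjusted p = 4.11e-12). PRKCA was lower with PMA too (5881 ± 282 to 3420 ± 102, -0.78, limma adjusted p = 4.25e-08), short of the fold for a call. The focal adhesion kinase PTK2, which clustered protocadherins are known to inhibit, had log2 changes of 0.31 and 0.00. None of 15 genes that flank the clusters on the chromosome was called with either treatment by limma, a count that is near the background in a list of this size (4.61% of all genes lower and 4.03% higher with PMA, 2.88% and 5.83% with ConA), while 4 were lower and 6 higher with PMA and 5 lower and 5 higher with ConA at an unadjusted p under 0.05. Their median log2 change was 0.04 with PMA and -0.03 with ConA.

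Marker lists were read beside these results because the family is best known from neurons. Of 14 neuron markers 9 were listed in each table, without STMN2, DCX, ELAVL3, ELAVL4 and INA, and their summed level was 14465 to 15182 normalized counts in PMA control, 7254 to 7991 in PMA, 18853 to 21364 in ConA control and 13501 to 14916 in ConA libraries. Fibroblast markers, of which 11 of 13 and 10 of 13 were listed, summed to 439976 to 449105, 414840 to 435689, 509645 to 588117 and 382999 to 418615 in the same order, and LUM was in neither table. Lymphocyte markers summed to 1410 to 1604 and 4645 to 5117 in the PMA experiment (10 of 13 listed) and to 444 to 571 and 4655 to 5453 in the ConA experiment (3 of 13 listed). Epithelial markers summed to 27765 to 29657 in the PMA controls and 15703 to 16337 with PMA (5 of 9 listed, without EPCAM and CDH1), and to 39312 to 40874 and 34714 to 37627 in the ConA experiment (8 of 9). Monocyte markers summed to 5307 to 5774, 7549 to 7750, 6175 to 6604 and 17578 to 20786, with CD14 in neither table, and the single erythroid marker listed summed to at most 15. The part of these shifts in the protocadherin values was not tested.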

How the data were processed

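Polyadenylated RNA of 12 HT1080 libraries was sequenced by a service company. The authors deposited 2 tables of normalized counts (a signal per gene symbol: estimated counts divided by 1 factor per library). The submitters' processing notes name Partek, Bowtie2, STAR and DESeq2, with no roles or order, and the builds hg19 and mm10, so no coordinates were taken from the files. Whether counting used strand is not given in the sources used here, so overlapping and antisense genes cannot be told apart. Library factors were estimated from values of 5 to 60 estimated reads, of which 81.6 to 83.9% became whole within 0.05. Many genes thus had no whole read count, and no count model was used. Replicates differed by 3.53 to 16.4 times the sampling variance. Each table was fitted with limma 3.58.1 (R 4.3.3, linear models with a variance trend) on log2(value + 1), with Benjamini-Hochberg adjustment over all genes tested. The fits were also run on simulated data, with the same spread setting for all genes. Only genes well above the minimum mean were changed there, by more than the fold for a call. That run therefore says nothing of lower genes, smaller changes or the spread between the real libraries. Cluster sums, shares and levels per kilobase have no test. Lengths came from GENCODE 29 and promoters from RefSeq on GRCh38.p14. Values in each library are given for PCDHGC5, for called members and for the 2 most abundant members of each cluster; of each list the called genes, at most 3 per treatment, are named. Members and lists were chosen with earlier results of these data known. Alternatives covered the pseudocount, the minimum mean, the scaling, the variance trend, a joint fit, the threshold, the replicate block and each library left out. Same-numbered PMA and PMA control libraries did not deviate together (correlations of -0.06, 0.10 and 0.10), so the numbers were not taken as pairs. Tables were made with Python 3.11.15, numpy 2.4.6 and pandas 2.3.3 and figures with matplotlib 3.10.9.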

Additional observations from a re-analysis of the deposited data

Results flagged for a closer look

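The change differed between the treatments for 3 of 34 members, all beta genes, by limma's test of the difference itself, the PMA change less the ConA change, which called 6.89% of all genes lower, so the count is near the background. It was -1.61 on the log2 scale for PCDHB5 (lower with PMA in 3 of 3 libraries, adjusted p = 1.37e-06), -1.79 for PCDHB15 (adjusted p = 1.66e-06) and -2.10 for PCDHB14 (adjusted p = 8.67e-05), a call lost without any 1 library other than PMA 2 and under 4 other settings. PCDHB9 had a more negative difference of -2.84, which missed the threshold (limma adjusted p = 0.000106). All its PMA libraries lay below their controls and all its ConA libraries above theirs. For PCDHGC5 all PMA libraries lay above their controls and all ConA libraries below theirs. The difference between the changes of PCDHGC5 was 3.55 and was not tested, because this gene led to the choice of the family.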

How the results depend on the processing

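PCDHGC5 aside, members called lower with PMA numbered 7, and 3 without a variance trend, 18 at an adjusted p of at most 0.05 and 3 to 8 with 1 library left out. With ConA 3 were called lower, and 6 under quantile normalization, 0 without a variance trend, 8 at an adjusted p of at most 0.05 (where 1, PCDHB9, was called higher) and 1 to 8 with 1 library left out. For the difference 3 were called, and 12 lower and 1 higher at an adjusted p of at most 0.05 and 2 to 5 with 1 library left out. Counts of members called higher were otherwise 0. The share of all genes called under each of these settings was not set beside the counts, here or above. A looser threshold calls more of all genes too. The counts therefore show only how the member calls move with the setting. The replicate number as a block in the PMA fit left 7 called lower and changed no call. The numbers are not known to mark pairs, and the ConA groups share none.

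The log2 ratio of the sums kept its sign throughout. Quantile normalization gave -1.22 for alpha and -1.26 for beta with PMA, and -0.72 and -0.48 with ConA, where median centring gave -0.44 for beta. Without the most abundant member of each cluster the ratio was -0.55 for gamma and -1.51 for beta with PMA and -0.29 for alpha with ConA. With 1 library left out the alpha, beta and gamma ratios ran from -1.64 to -1.49, -1.63 to -1.55 and -0.34 to -0.25 with PMA, and from -0.59 to -0.49, -0.40 to -0.35 and -0.77 to -0.68 with ConA. Without the most abundant members the share changed by -0.44, -4.13 and 4.57 percentage points (alpha, beta, gamma) with PMA and by 0.30, 2.37 and -2.68 with ConA; with members of a mean of at least 10 only, by -2.57 (beta) and 3.12 (gamma) with PMA. With 1 library left out the changes in share were -0.71 to -0.54, -2.84 to -2.71 and 3.26 to 3.54 points with PMA and 0.07 to 0.16, 1.16 to 1.38 and -1.54 to -1.23 with ConA. At a tolerance of 0.1, 26.0% of gamma values and 85.1% of all values were whole. The causes of these shifts were not tested. Depth limits the members under 10 normalized counts, and values that are not whole reads limit all 3 clusters, gamma most.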
